A study of Homo sapiens with 6 samples.

Results

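The cytosolic nucleic acid sensing pathway was described through 10 genes, taken by symbol from a deposited table of 56638 rows: the RNA sensors DDX58 (RIG-I), IFIH1 (MDA5) and DHX58 (LGP2), the DNA sensors MB21D1 (cGAS) and AIM2, the adaptors MAVS and TMEM173 (STING), the kinases TBK1 and IKBKE, and the transcription factor IRF3. All 10 rows were found, and 9 of them passed the filter on low counts among 13490 tested genes. AIM2 did not pass and is described by its counts. The MOLM-13 line used is a human acute myeloid leukaemia line with a KMT2A-MLLT3 fusion, kept in RPMI medium with serum. Libraries UDI0051, UDI0052 and UDI0053 came from cells given 2 µM UC-764864, an inhibitor of UBE2N by the series title (its design text spells the compound UC-744864), and UDI0054, UDI0055 and UDI0056 from cells given DMSO, the solvent. All cells were collected after 24 h. One line was studied, at 1 dose and 1 time. The comparison asks which transcripts of the sensing pathway differed between the treated and the solvent cells.

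RIG-I and MDA5 are helicases that bind foreign RNA in the cytosol and pass the signal to MAVS on mitochondria, while LGP2, which lacks their signalling domains, modulates both. cGAS binds DNA and makes a cyclic dinucleotide that activates STING on the endoplasmic reticulum, and AIM2 binds DNA to assemble an inflammasome. MAVS and STING both recruit TBK1 and IKK-epsilon, the product of IKBKE, which phosphorylate IRF3 so that it turns on type I interferon genes. Interferon in turn raises transcription of several sensors, DDX58, IFIH1 and DHX58 among them. UBE2N builds ubiquitin chains that serve in signalling of RIG-I and of MAVS.

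The 2 RNA sensor genes DDX58 and DHX58 were the members that fell after UC-764864, by 0.65 and 1.29 on the log2 scale. AIM2, at the limit of detection in treated cells, had 10 counts in the UC-764864 libraries together and 40 in the DMSO libraries. None of the adaptor, kinase or IRF3 transcripts passed the test in either direction. Of the 9 tested members 2 were lower and 0 higher at an adjusted p under 0.05, or 22.2% lower, where 8.13% of all tested genes were lower and 5.11% higher. At an unadjusted p under 0.05 edgeR also gave 2 lower and 0 higher, against 16.6% and 14.9% of all tested genes, and DESeq2 called the same 2 genes lower and 0 higher, against 10.2% and 6.35%. The median log2 fold change was −0.12 over the 9 members and 0.01 over all tested genes. With so few members these shares are a description and were given no test.

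The upstream 250 bases of 3 sensor genes are shown because interferon acts on such genes through short elements close to the start. RefSeq windows of 300 bases on GRCh38.p14, which hold these 250 and the first bases after the start, were matched for 6 members, DDX58, IFIH1, AIM2, MAVS, TBK1 and IKBKE. MB21D1, DHX58, TMEM173 and IRF3 were not matched. Each window was searched on both strands for the core of the interferon-stimulated response element, GAAANNGAAA, and for GAAANGAAA, the same pair of GAAA with a gap of 1 base, a form added after the windows had been read. Capitals mark every match to either, in the orientation of the gene, and a match on the other strand reads TTTC first.
DDX58 (chr9:32526197-32526446, minus strand): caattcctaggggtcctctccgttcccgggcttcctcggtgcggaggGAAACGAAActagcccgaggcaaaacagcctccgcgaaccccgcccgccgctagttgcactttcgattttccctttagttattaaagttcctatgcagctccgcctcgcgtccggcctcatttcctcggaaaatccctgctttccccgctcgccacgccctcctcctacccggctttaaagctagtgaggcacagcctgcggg
IFIH1 (chr2:162318685-162318934, minus strand): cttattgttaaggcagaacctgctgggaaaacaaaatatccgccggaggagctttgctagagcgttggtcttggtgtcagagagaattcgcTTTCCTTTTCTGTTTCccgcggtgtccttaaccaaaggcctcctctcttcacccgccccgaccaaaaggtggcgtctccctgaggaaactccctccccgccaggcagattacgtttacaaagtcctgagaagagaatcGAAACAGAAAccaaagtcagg
AIM2 (chr1:159076767-159077016, minus strand): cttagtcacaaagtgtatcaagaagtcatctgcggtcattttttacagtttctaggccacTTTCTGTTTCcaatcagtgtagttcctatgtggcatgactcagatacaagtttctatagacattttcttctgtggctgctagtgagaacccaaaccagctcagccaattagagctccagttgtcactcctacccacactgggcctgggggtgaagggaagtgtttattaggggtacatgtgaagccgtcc
IFIH1 held 3 matches to GAAANNGAAA, at −159, −153 and −21 from the RefSeq start. The first 2 overlap and form a single run of capitals. AIM2 held 1 such match, at −190. DDX58 held none, but had GAAACGAAA at −203. No window of MAVS, TBK1 or IKBKE held either form. Among 27305 RefSeq windows of 300 bases on the main chromosomes, 3.65% held GAAANNGAAA, 3.22% GAAANGAAA and 6.55% one or both. The third motif, the gamma-activated site core TTCNNNGAA, was in 0 of the 6 member windows and in 7.88% of all. The windows with a match thus belonged to a gene that fell (DDX58), to one that did not pass (IFIH1) and to one that was not tested (AIM2). A match is a string of letters and shows no binding.

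Levels are CPM, counts scaled to a common library size with TMM factors, means are given with SD over 3 libraries per group, and fold changes are UC-764864 over DMSO from edgeR's quasi-likelihood test with Benjamini-Hochberg adjustment over all tested genes. The 13 alternatives changed the rows, the scaling, the tool, the filter or the GC correction, or left out 1 library or both UDI0052 and UDI0056. Adjusted p-values of the fit without the filter on low counts are not comparable with those of the main analysis, so its calls are a description. Total counts per library ranged from 16136156 to 25014437, and a count of 3, taken as the floor, was 0.123 to 0.198 CPM. Pairs of libraries within a group differed by more than sampling noise (chi-square per degree of freedom 4.75 to 45.5). UDI0055 holds unbroken runs of zeros over 3799 rows, all outside the members, which were left out of every library. UDI0052 and UDI0056 took 8.67% and 8.86% of their counts from genes with a GC content of at least 60%, against 10.5% to 12.1% in the other libraries. With library size as the only scaling the calls over all genes were 508 higher and 1271 lower, against 690 and 1097 with TMM factors, and with each library's GC trend removed they were 2369 and 1628. Of the myeloid markers, LYZ was at 3055 to 6331 CPM, FLT3 at 439 to 545 and CD33 at 103 to 138, while CD14 and CD68, both monocyte and macrophage markers, stayed at 0.198 to 0.721 CPM. CD3G, CD2, MS4A1, KLRD1, HBA1, PF4, KRT19 and COL3A1, markers of other cell types, were at 0 in all 6 libraries. The summed level of the 4 natural killer markers, nearly all of it NCAM1 and NKG7, was 77.4 to 89.5 CPM in treated and 87.5 to 97.6 CPM in DMSO libraries. LYZ was higher after UC-764864 (log2 fold change 0.88, adjusted p = 0.00141), and ITGAM and CSF1R were lower (−1.02 and −0.58, adjusted p = 0.00357 and 0.0179). The summed T cell markers (0.453 to 0.631 against 1.06 to 1.33 CPM) and the summed epithelial and stromal markers (0.947 to 1.40 against 2.39 to 2.82 CPM) were lower after UC-764864. Of these markers CD3D (−1.07, adjusted p = 0.0358) and PDGFRB (−1.45, adjusted p = 0.0122) were called. Both passed the filter on low counts through their DMSO libraries, so these calls are a description. What part the markers have in the results was not tested. In bulk RNA, fewer cells with a transcript and less of it per cell cannot be told apart. Whether the 3 libraries of a group are separate cultures is not stated, and p-values then reflect only how far these samples spread, which may be technical.

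**Figure D1:**
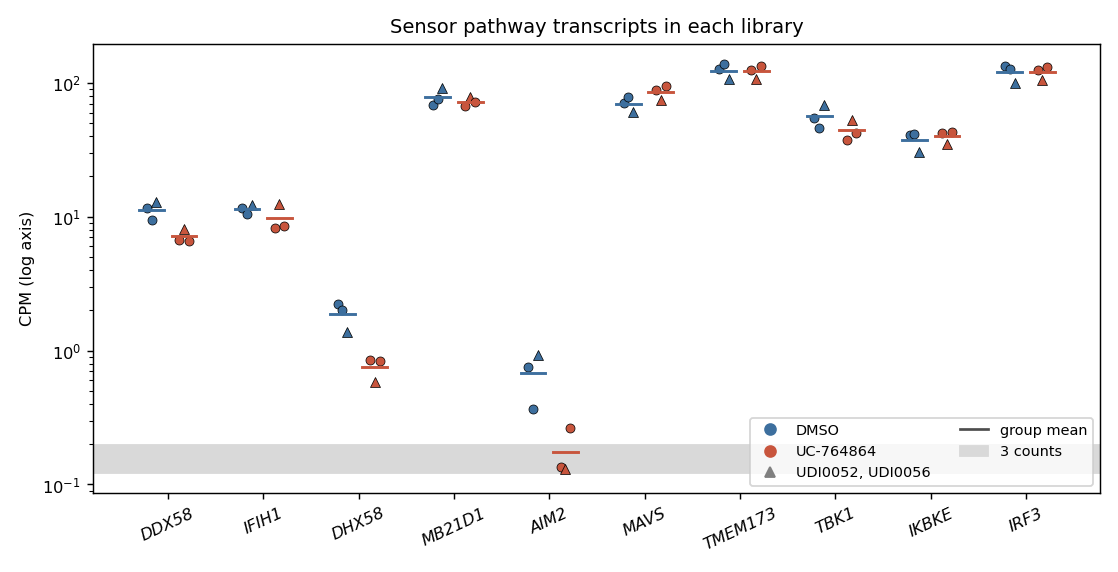
CPM of the 10 genes on a log axis, 1 point per library, with DMSO in blue, UC-764864 in red, triangles for UDI0052 and UDI0056, a bar for each group mean and a grey band for the CPM that 3 counts are worth. DDX58, DHX58 and AIM2, which was not tested, show groups that do not overlap, and the other 7 genes overlap. Of all tested genes, 17% had groups without overlap in the lower direction and 19% in the higher one.

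Among the RNA sensors, DDX58 encodes RIG-I, which recognises RNA ends with a triphosphate. It stood at 11.6, 9.41 and 12.8 CPM in the DMSO libraries UDI0054, UDI0055 and UDI0056, and at 6.71, 8.16 and 6.63 CPM in the UC-764864 libraries UDI0051, UDI0052 and UDI0053. Every treated library was below every DMSO library. The mean went from 11.3 ± 1.71 to 7.17 ± 0.857 CPM, a log2 fold change of −0.65 ± 0.16 (SE, adjusted p = 0.0256), or 1.57-fold lower. This call was lost without UDI0051 (adjusted p = 0.120), without UDI0053 (0.0954), without UDI0054 (0.0915) and with every row kept as deposited (0.0759), while the log2 fold change stayed between −0.78 and −0.49 over 13 alternatives.

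DHX58 encodes LGP2, the helicase of the family without signalling domains. It was scarce, with 50, 49 and 21 counts in the DMSO libraries (2.21, 2.00 and 1.38 CPM) and 19, 9 and 16 counts in the UC-764864 libraries (0.856, 0.583 and 0.842 CPM). The groups did not overlap, and in each group the lowest value was that of the library poorest in GC-rich genes. DHX58 fell 2.45-fold, from 1.87 ± 0.430 to 0.760 ± 0.154 CPM (log2 fold change −1.29 ± 0.28, adjusted p = 0.0163), the smallest p of the members. The call was lost without UDI0051 (adjusted p = 0.0561), without UDI0053 (0.05003), without UDI0054 (0.0691) and with every row kept (0.0580), at log2 fold changes from −1.44 to −1.16 over the same 13 alternatives. Of the 9 tested members 2 had groups without overlap in the lower direction and 0 in the higher one, against 17% and 19% of all tested genes.

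IFIH1 encodes MDA5, which recognises long double-stranded RNA. Its DMSO libraries stood at 11.5, 10.5 and 12.2 CPM and its UC-764864 libraries at 8.201, 12.4 and 8.47 CPM. UDI0051 and UDI0053 were below all DMSO libraries, and UDI0052 was above them all. The log2 fold change was −0.24 ± 0.17, with a 95% interval from −0.62 to 0.14 (adjusted p = 0.373). Without UDI0052 it was −0.48 (adjusted p = 0.0769), and it did not pass under any of the 13 alternatives (adjusted p 0.0769 to 0.769).

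Whether DDX58 and IFIH1 changed unequally was read from the ratio of their counts within a library, which no library scaling can move. DDX58 had 1.01, 0.898 and 1.05 counts per IFIH1 count in the DMSO libraries and 0.819, 0.656 and 0.783 in the UC-764864 libraries. The ratio was lower in all 3 treated libraries, 0.753 ± 0.0853 against 0.985 ± 0.0776 (two-sided exact permutation p = 0.1, the smallest that 3 against 3 allows). This was 1 of 4 ratios between members, chosen after their values had been seen, and its adjusted p was 0.2. The other 3 exact permutation tests were of DDX58 to MAVS, also without overlap between groups (p = 0.1, adjusted p = 0.2), TBK1 to IKBKE (p = 0.3, adjusted p = 0.4) and MB21D1 to TMEM173 (p = 0.5, adjusted p = 0.5).

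Among the DNA sensors, MB21D1 encodes cGAS. It stood at 68.4, 75.4 and 91.7 CPM in the DMSO libraries and at 67.2, 78.5 and 71.6 CPM in the UC-764864 libraries, and the groups overlapped. Its log2 fold change of −0.12 ± 0.13 had a 95% interval from −0.41 to 0.18 (adjusted p = 0.585). MB21D1 thus was the better measured of the DNA sensors, with 1213 to 1842 counts per library.

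AIM2, the inflammasome sensor of DNA, had 17, 9 and 14 counts in the DMSO libraries and 3, 2 and 5 in the UC-764864 libraries. In CPM these were 0.751, 0.368 and 0.923 against 0.135, 0.129 and 0.263, so that each treated library was below each DMSO library and 2 of them were at or under the floor of 3 counts. The summed counts gave a rate 3.64-fold lower after UC-764864, with an exact 95% interval from 1.79 to 8.16 that covers counting error only. An exact permutation test of the CPM values gave p = 0.1, the smallest possible (two-sided, n = 3 per group). Without the filter on low counts, edgeR gave a log2 fold change of −1.87 (adjusted p = 0.00756). Adjusted p-values of that fit are not comparable with those of the main analysis. In it DHX58 went from 0.0163 to 0.000563 and DDX58 from 0.0256 to 0.00308, so the value for AIM2 is a description. AIM2 also entered 4 of the fits that leave out 1 library, but only through its DMSO libraries, so those fits are not used for AIM2.

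**Figure D2:**
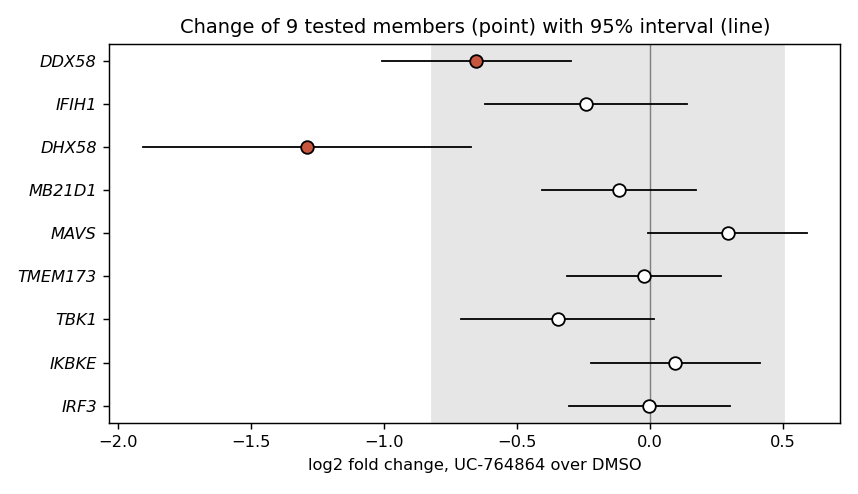
Log2 fold change of the 9 tested members (points, filled at an adjusted p under 0.05) with 95% intervals (lines) on a linear axis, over a grey band that spans the 5th to the 95th percentile of all tested genes, −0.82 to 0.51. DHX58 lies below the band, and the intervals of DDX58 and DHX58 leave out 0.

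Of the adaptors, MAVS relays the signal of RIG-I and MDA5 from mitochondria. It was at 70.6, 78.7 and 60.1 CPM in the DMSO libraries and at 88.9, 73.9 and 94.0 CPM in the UC-764864 libraries. UDI0051 and UDI0053 were above all DMSO libraries, and UDI0052 was between them. The log2 fold change of 0.29 ± 0.14 had a 95% interval from −0.01 to 0.59 and did not pass (adjusted p = 0.167). It stayed positive, from 0.18 with the GC trend removed to 0.39 without UDI0055, and did not pass under any of the 13 alternatives.

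TMEM173 encodes STING, the receptor of the cyclic dinucleotide. Its DMSO libraries were at 126, 137 and 107 CPM and its UC-764864 libraries at 124, 106 and 134 CPM, nearly the same range in both groups. The log2 fold change was −0.02 ± 0.13, with a 95% interval from −0.31 to 0.27 (adjusted p = 0.924).

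Of the kinases, TBK1 acts below both adaptors. It stood at 54.5, 45.8 and 68.0 CPM in the DMSO libraries and at 37.6, 52.4 and 42.3 CPM in the UC-764864 libraries. UDI0051 and UDI0053 were below all DMSO libraries, and UDI0052 was not. The log2 fold change was −0.35 ± 0.17, with a 95% interval from −0.71 to 0.02 (adjusted p = 0.178). It moved to −0.52 without UDI0052 (adjusted p = 0.0839), to −0.19 without UDI0056 (0.441) and to −0.11 with the GC trend removed (0.325), and passed in none of the 13 alternatives.

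IKBKE, which encodes IKK-epsilon, the close relative of TBK1, was at 40.4, 41.1 and 30.2 CPM after DMSO and at 41.9, 35.1 and 42.7 CPM after UC-764864. The groups overlapped, and the log2 fold change of 0.10 ± 0.15 had a 95% interval from −0.22 to 0.42 (adjusted p = 0.682). The ratio of TBK1 to IKBKE counts was 1.35, 1.11 and 2.25 in the DMSO libraries and 0.899, 1.49 and 0.990 in the UC-764864 libraries. Its highest value in each group came from UDI0056 and UDI0052.

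IRF3, the transcription factor at the end of the relay, was at 135, 128 and 100.5 CPM after DMSO and at 125, 105 and 132 CPM after UC-764864. Means were 121 ± 18.0 and 121 ± 14.1 CPM, and the 95% interval of the log2 fold change ran from −0.30 to 0.30 (adjusted p = 0.996). In GENCODE 29, 19.35% of the exon bases of IRF3 overlap exons of BCL2L12 on the opposite strand, so without strand their reads cannot be told apart. BCL2L12 had a log2 fold change of 0.02 (adjusted p = 0.946). Smaller overlaps with a gene on the opposite strand were found for TBK1 (14.74% of exon bases), MB21D1 (4.332%) and IKBKE (4.115%), and none for the other 6 members.

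Per kilobase of exon (GENCODE 29 lengths on GRCh38, which may differ from the models the authors counted on), the DMSO levels ordered the members. TMEM173 at 32.1 ± 3.95 and IRF3 at 31.9 ± 4.74 CPM per kb stood highest, and their libraries overlapped. MB21D1 followed at 18.9 ± 2.88 CPM per kb, below IRF3 in every library. TBK1 at 11.8 ± 2.35 and IKBKE at 9.82 ± 1.62 CPM per kb overlapped, and MAVS stood at 5.93 ± 0.793, below both. DDX58 and IFIH1 were close, at 2.59 ± 0.394 and 2.23 ± 0.170 CPM per kb, and overlapped. DHX58 at 0.486 ± 0.112 and AIM2 at 0.339 ± 0.141 CPM per kb were lowest and overlapped with each other. Sensors of RNA were thus scarcer per length than the adaptors and kinases they signal through. After UC-764864 the levels per kb were 1.65 ± 0.197 for DDX58, 1.90 ± 0.463 for IFIH1, 0.198 ± 0.0401 for DHX58 and 0.0876 ± 0.0376 for AIM2.

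Within a group, UDI0052 and UDI0056 stood apart from the other libraries, in a direction that went with GC content for the 9 tested members and not for AIM2. In UDI0052 and UDI0056, log2 CPM was set against the mean of the other libraries of the same group. Of the tested members, the 4 with a GC content under 50% (TBK1, DDX58, IFIH1 and MB21D1, 39.3% to 43.6%) were higher in both libraries, from 0.15 for IFIH1 in UDI0056 to 0.58 for IFIH1 in UDI0052. The 5 with more than 50% (MAVS, TMEM173, DHX58, IKBKE and IRF3, 52.1% to 59.0%) were lower in both, from −0.27 for IKBKE in UDI0052 to −0.60 for DHX58 in UDI0056. AIM2 (41.7% GC), which was not tested and had few counts, did not follow this order, at −0.54 in UDI0052 and 0.81 in UDI0056. Each group holds 1 such library. Without both, DDX58 was at −0.68 (adjusted p = 0.0216) and DHX58 at −1.33 (0.0160), and with each library's GC trend removed they were at −0.49 (0.00666) and −1.33 (0.00209). The calls of DDX58 and DHX58 therefore stood under both settings.

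**Figure D3:**
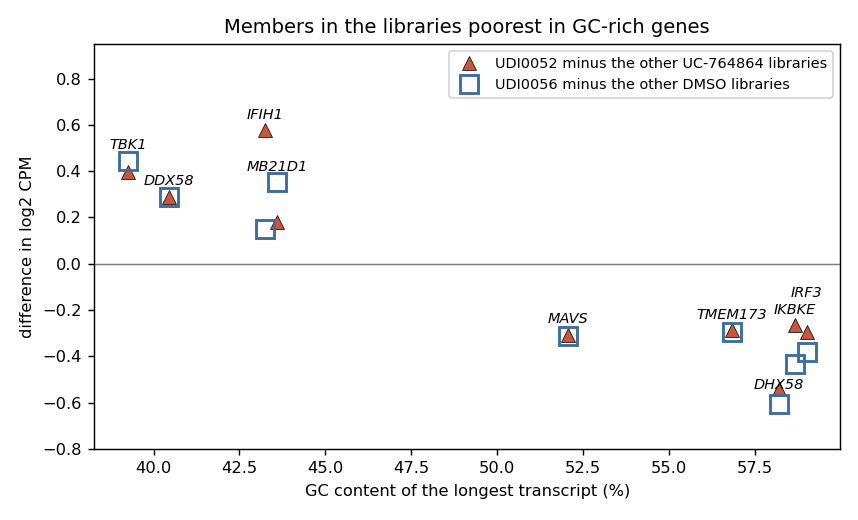
GC content of the longest transcript (x axis, percent) and difference in log2 CPM (y axis) of the 9 tested members, for UDI0052 against the other UC-764864 libraries (red triangles) and UDI0056 against the other DMSO libraries (open blue squares). The 4 members under 50% GC lie above 0 and the 5 over 50% lie below it in both libraries.

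**Figure D4:**
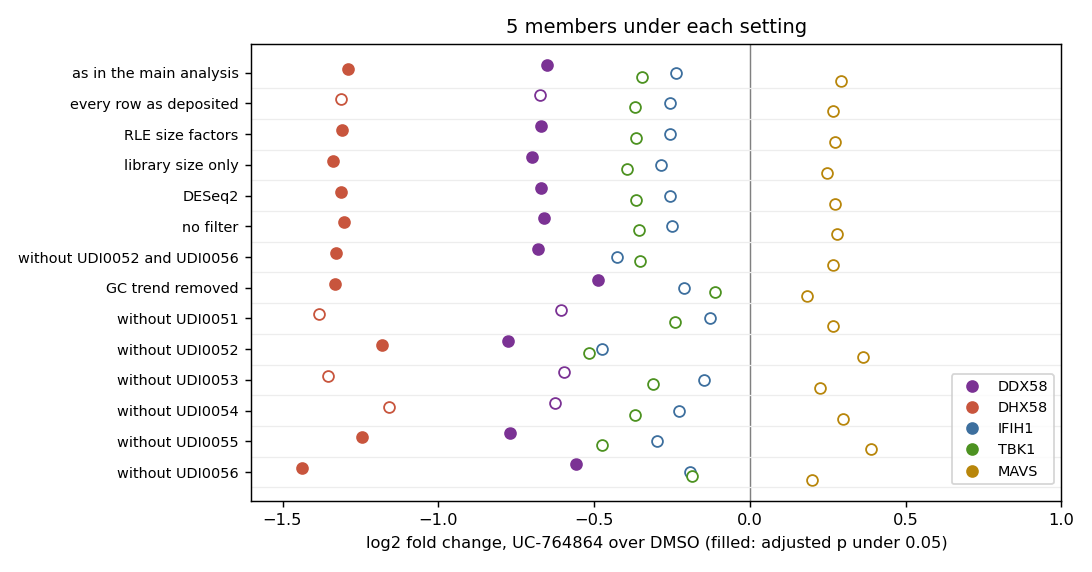
Log2 fold change (x axis) of DDX58, DHX58, IFIH1, TBK1 and MAVS under the main analysis and 13 alternatives (y axis), filled where the adjusted p is under 0.05. DHX58 and DDX58 lie left of 0 in every row and are open in 4 rows, the other 3 genes are open in all.

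By the rule for likeness, which took the member with the smallest p, the genes whose centred log2 CPM lay closest to DHX58 over the 6 libraries were DLL1, MLXIPL and SARDH, among 9878 tested genes that reached 5 CPM on average. Their root mean square differences from DHX58 were 0.15, 0.17 and 0.19 on the log2 scale. DLL1, a Notch ligand, went from 8.23 ± 1.17 to 3.48 ± 0.372 CPM. MLXIPL, a carbohydrate-responsive transcription factor, went from 13.1 ± 1.58 to 6.22 ± 1.65 CPM, and SARDH, a mitochondrial sarcosine dehydrogenase, from 9.91 ± 1.31 to 4.51 ± 1.57 CPM. They were chosen for likeness to DHX58 over all 6 libraries, the difference between groups included, so their lower values are a description, with no test.

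The partners of the members were read from 7 lists. These lists were chosen with earlier results of these data known, so their shares of called genes are a description. Of the ligases and cofactors of RIG-I and MDA5, 2 of 19 tested genes fell (10.5%) and 1 rose (5.26%), close to the 8.13% and 5.11% of all tested genes, with a median log2 fold change of −0.00. DDX60, a helicase linked to RIG-I, fell from 10.7 ± 1.96 to 4.63 ± 0.506 CPM (−1.21 ± 0.17, adjusted p = 0.00367), and the ubiquitin-conjugating enzyme gene UBE2D3 from 327 ± 29.4 to 219 ± 7.55 CPM (−0.58 ± 0.11, adjusted p = 0.0103). ZNFX1, a helicase that binds viral RNA, rose from 24.0 ± 1.80 to 36.4 ± 3.81 CPM (0.60 ± 0.13, adjusted p = 0.0150). The ligase genes TRIM25 and RNF135, which modify RIG-I, did not pass, at 0.20 and 0.05 on the log2 scale (adjusted p = 0.221 and 0.818). UBE2N, the named target, stood at 189 ± 17.01 CPM in DMSO and 159 ± 10.9 CPM in treated cells and did not pass (adjusted p = 0.156). These 3 genes were named after their values were seen. DDX60 was called under all 13 alternatives. UBE2D3 was lost without UDI0051 (adjusted p = 0.0663) and with every row kept (0.0509), and was at −0.30 with the GC trend removed. ZNFX1 was lost without UDI0051 (0.0987), without UDI0054 (0.0693) and with every row kept (0.0608).

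Of the signalling partners of MAVS and TBK1, 2 of 18 tested genes fell (11.1%, against 8.13% of all tested genes) and 1 rose (5.56%, against 5.11%), with a median of −0.04. SIKE1, a suppressor of IKK-epsilon and TBK1, fell from 62.2 ± 10.1 to 40.5 ± 2.84 CPM (−0.62 ± 0.14, adjusted p = 0.0172). MARCH5, a mitochondrial ubiquitin ligase, fell by 0.48 ± 0.13, and MFN2, a mitochondrial fusion protein that binds MAVS, rose by 0.42 ± 0.13 (adjusted p = 0.0340 and 0.0491). SIKE1 was lost without UDI0051 and without UDI0053 (adjusted p = 0.0946 and 0.0684) and with every row kept (0.0660). MARCH5 and MFN2 were called in 6 and 5 of 13 alternatives. Without single libraries MARCH5 passed only in the fit without UDI0055, and so did MFN2. In this list SIKE1, at a GC content of 36.3%, and MARCH5, at 38.7%, were GC-poor, and with the GC trend removed both were at −0.21 (adjusted p = 0.0426 for SIKE1 and 0.0947 for MARCH5).

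Of the partners of cGAS and STING, 4 of 22 fell (18.2%, against 8.13% of all tested genes) and 1 rose (4.55%, against 5.11%), and the median was 0.16. INSIG1 and INSIG2, sterol-regulated proteins of the endoplasmic reticulum that also act on STING, went from 720 ± 140 to 331 ± 40.8 CPM and from 29.05 ± 5.76 to 12.5 ± 2.53 CPM (−1.12 ± 0.15 and −1.21 ± 0.19, adjusted p = 0.00299 and 0.00451). IFI16, a DNA-binding protein of the AIM2 family, fell from 6.001 ± 0.169 to 2.77 ± 0.294 CPM (−1.12 ± 0.17, adjusted p = 0.00402). The other 2 calls, named after their values were seen, were USP18, an interferon-induced protease, at −0.84, and SEC24C, a coat protein of vesicles that leave the endoplasmic reticulum, at 0.38 (adjusted p = 0.0374 and 0.0491). INSIG1 and IFI16 were called under all 13 alternatives, and INSIG2 in 12, the exception being every row kept (adjusted p = 0.0541). With the GC trend removed INSIG2 was at −0.77.

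Nucleases and editors that keep self nucleic acids from the sensors held 1 lower call (8.33%) and 0 higher among 12 tested genes, against 8.13% and 5.11% of all tested genes, with a median of 0.10. At an unadjusted p under 0.05 edgeR had 2 lower and 3 higher (16.6% and 14.9% of all genes). DESeq2 called 1 lower, RNASEH2B, and 2 higher, ADAR and SAMHD1 (10.2% and 6.35% of all genes). RNASEH2B, a subunit of the nuclease that removes ribonucleotides from DNA, fell by 0.44 ± 0.12, from 166 ± 21.7 to 123 ± 5.49 CPM (adjusted p = 0.0369). It was called in 7 of 13 alternatives and was lost in each fit without 1 library other than UDI0055. With the GC trend removed its log2 fold change was −0.22.

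Other nucleic acid sensors had 5 of 14 tested genes lower (35.7%, against 8.13% of all tested genes) and 1 higher (7.14%, against 5.11%), with a median of −0.20. OAS2, OAS1 and OAS3, synthetases that respond to double-stranded RNA, fell, at −2.21 ± 0.23, −2.01 ± 0.22 and −1.95 ± 0.33 on the log2 scale (adjusted p = 0.00122, 0.00133 and 0.00647) and were called under all 13 alternatives. OAS3 was scarce, with 9, 7 and 11 counts in the UC-764864 libraries and 56, 35 and 25 in the DMSO libraries. It passed the filter on low counts through its DMSO libraries, so its calls and its place among the 5 are a description. OAS1 stood at 6.58, 5.36 and 5.54 CPM in the DMSO libraries and at 1.31, 1.94 and 1.16 CPM in the UC-764864 libraries, well apart. The further calls, named after their values were seen apart from NLRP1, were IFIT1 at −1.46, NLRP1 at −0.69 and the nuclear helicase gene DHX9 at 0.43 (adjusted p = 0.0123, 0.0447 and 0.0230).

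Of AIM2's relatives and the inflammasome genes, 3 of 12 tested fell (25%, against 8.13% of all tested genes) and 0 rose (against 5.11%), with a median of −0.36. At an unadjusted p under 0.05 edgeR had 6 lower and 1 higher (16.6% and 14.9% of all genes). DESeq2 called 3 lower and 0 higher (10.2% and 6.35% of all genes). IL18, a cytokine matured by inflammasomes, fell from 15.9 ± 0.809 to 7.11 ± 1.06 CPM (−1.16 ± 0.15, adjusted p = 0.00250) and was called under all 13 alternatives. NLRP1, an inflammasome receptor, fell by 0.69 ± 0.20 (adjusted p = 0.0447), a call lost without UDI0051, UDI0052 or UDI0054 (adjusted p = 0.200, 0.0793 and 0.181) and with every row kept (0.106). IFI16, given above, is in this list too.

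Among interferon regulatory factors and interferons, 0 of 6 tested genes passed edgeR's test (8.13% lower and 5.11% higher of all tested genes), with a median of −0.12. At an unadjusted p under 0.05 edgeR had 2 lower and 1 higher (16.6% and 14.9% of all genes), and DESeq2 called 1 lower, IRF7 (10.2% of all genes). IRF9, the DNA-binding subunit of the interferon-activated complex, came closest, at 2.43 ± 0.484 CPM after DMSO and 1.41 ± 0.160 CPM after UC-764864 (−0.76 ± 0.24, adjusted p = 0.0544). It passed without UDI0055 (adjusted p = 0.0181), with the GC trend removed (0.0170) and with library size only (0.0479). Its adjusted p was 0.0326 without the filter, a fit not comparable with the main analysis. IFNA1, IFNA2, IFNL1, IFNL2 and IFNL3 had 0 counts in all 6 libraries, and IFNB1 had 1 count in UDI0055 and 0 in the rest. These 6 interferon genes thus lay at or under the floor, and 0 counts allow up to 3 per library, 0.123 to 0.198 CPM.

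**Figure D5:**
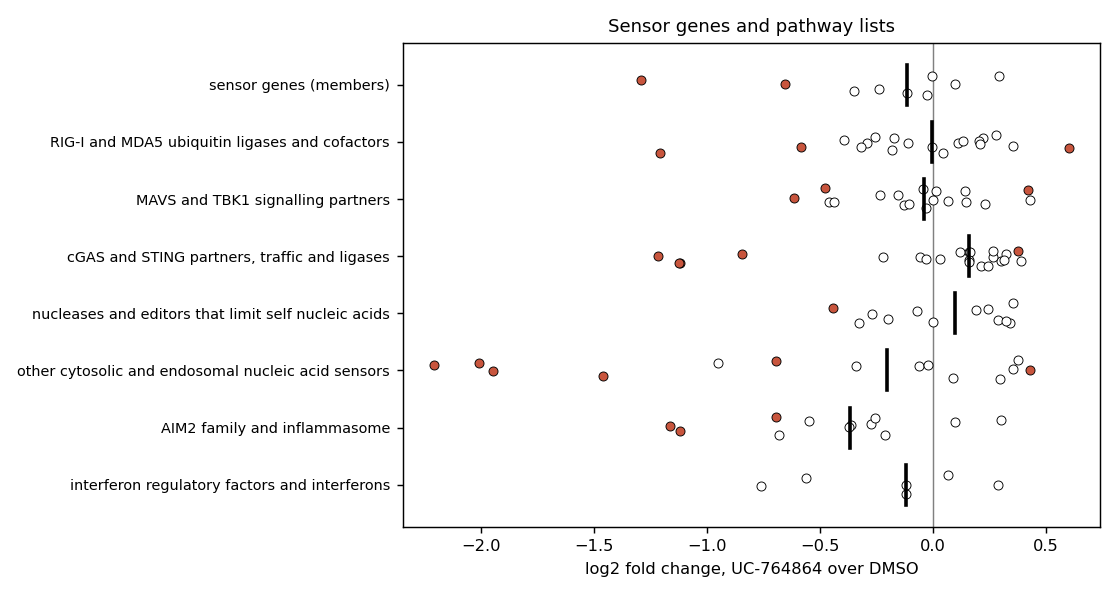
Log2 fold change (x axis) of every tested gene of the sensor set and of the 7 partner lists (rows, points spread vertically to be seen), filled at an adjusted p under 0.05, with a black bar at each median. The lowest points are OAS2, OAS1 and OAS3 among other sensors, and filled points right of 0 are ZNFX1, MFN2, SEC24C and DHX9, 1 in each of 4 lists.

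The 2 motif forms were also counted in the windows of these partners. Of 11 matched partner genes that fell, 4 held GAAANNGAAA or GAAANGAAA, as did 0 of 3 that rose, 10 of 67 that did not pass and 6 of 17 that were not tested, against 6.55% of all windows. The 4 were DDX60, IFIT1, OAS1 and OAS3. OAS1 held only GAAANGAAA, the form added after the windows had been read. GAAANNGAAA alone was in 3 of 11, 0 of 3, 3 of 67 and 6 of 17, against 3.65% of all windows. No difference between these shares was tested. With both forms, the share was close between genes that fell and genes that were not tested. Of the latter, those with a match were IFNA1, IFNL1, IFNL2 and IFNL3, with 0 counts in all 6 libraries, and the scarce IFIT5 and TLR3. OAS3 passed the filter on low counts through its DMSO libraries, so these shares are a description.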

How the data were processed

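MOLM-13 libraries were made from poly(A) RNA, per the labels' protocols, and the authors deposited whole-number counts per gene symbol with no normalization. The submitters' processing notes name GRCh37, featureCounts 1.5.2, HISAT2 2.0.5 and FastQC 0.11.7 without roles. Neither the annotation nor the strand setting is given in the labels or files. The treatment of each column came from a second deposited table.

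Rows in unbroken runs of zeros in 1 library (at least 10 rows with 50 or more counts in each other library) were left out. Counts were fitted in R 4.3.3 with edgeR 4.0.16 (filterByExpr, TMM, glmQLFit, glmQLFTest), threshold adjusted p 0.05. DESeq2 1.42.0 was an alternative. The fit was tested on simulated data. GC contents and lengths are from GENCODE 29 and promoters from RefSeq, both on GRCh38, joined by symbol or synonym, and 12213 of 13490 tested genes had a GC value. X-linked partners lay in the left-out rows. Reads carry no molecular identifiers, so floors and intervals cover counting error only.

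Beside the 10 sensor genes, the text names from each of 7 partner lists (120 symbols) the called genes in order of p, at most 3, or the 1 with the smallest p, and the 3 genes closest in pattern to the sensor with the smallest p. The sensor genes and lists were chosen with earlier results of these data known. Exceptions are marked where they occur.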

Additional observations from a re-analysis of the deposited data

How the results depend on the processing

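Counts of calls depended on rows, filter, GC and single libraries. Over all genes the 690 higher and 1097 lower calls (5.11% and 8.13% of 13490) became 22 and 125 of 14027 with every row as deposited. Without the filter the lower calls were 1676 of 24326 (6.89%). With the GC trend removed the higher calls were 2369 of 12213 (19.4%). Leaving out 1 library gave 62 (without UDI0051) to 1525 (without UDI0055) higher and 278 to 1729 lower calls. Of the sensor genes 2 were lower in the main analysis and 0 with every row as deposited, against 8.13% and 0.891% of all tested genes. When 1 library was left out, 0 to 3 were lower. The count was 0 without UDI0051, UDI0053 or UDI0054, against 2.03%, 3.31% and 3.49% of all tested genes. It was 3 without UDI0055, against 12.6%. The third is AIM2, which entered that fit only through its DMSO libraries. Without the filter 3 were lower, with AIM2, against 6.89% of all tested genes. Higher calls among the sensor genes stayed at 0 in each of these settings. AIM2 could not be fitted where the filter removed it. The 2 sensor genes that passed, DDX58 and DHX58, kept their direction in each of these settings. Other members, never called, changed sign over the 13 alternatives. On the log2 scale TMEM173 ran from −0.11 to 0.06 and MB21D1 from −0.21 to 0.01. IKBKE ran from −0.03 to 0.17 and IRF3 from −0.12 to 0.08. The cause of the differences between settings was not tested. No paired analysis was possible because the deposited columns carry a treatment and no replicate number. Depth limits DHX58 and AIM2, whose libraries hold at most 50 and 17 counts.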
